A study of Bos taurus with 20 samples.

Results

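The prolactin-related gene region of bovine chromosome 23 was described in whole conceptuses of 2 shapes, exposed or not exposed to interleukin 6 (IL6) as embryos. Its members were chosen by limits on the annotation into which no count entered, though earlier results of these data were known. The limits took genes on chromosome 23 that start within 3500000 bases from 33000000. A span of 5000 to 25000 bases, more than 1 exon and a summed exon length of 600 to 2000 bases were also required. This gave 16 members of the 27607 genes in the files, with positions on ARS-UCD1.2. Recombinant bovine IL6, a cytokine, had been added at 100 ng/ml on day 5 after in vitro fertilisation, or its carrier in controls, and blastocysts were collected on day 7.5 for transfer. There were 6 control and 6 IL6 conceptuses of ovoid shape and 4 of each of tubular shape, 1 library each, with both sexes in every group. The titles also carry 5 codes whose meaning the labels do not give: c201, c5036 and c8086 for controls, c6186 and c9007 for IL6. One library stood apart in depth: ovoid control replicate 3 had 329666 counts, against 2298491 to 13940103 in the other 19. The sources used here give neither the age at recovery nor the breed. RNA was total RNA of each whole conceptus after removal of ribosomal RNA. All conceptuses came from embryos cultured and then transferred, so none was conceived in vivo.

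Prolactin is a pituitary hormone that acts through a receptor coupled to JAK2 and STAT5. In ruminants its gene has been copied many times, and the copies, placental lactogen and the prolactin-related proteins, are known as products of the placenta, above all of the binucleate trophoblast cells that form as the trophoblast matures and attaches. The copies lie side by side with prolactin itself. In the RefSeq gene table of ARS-UCD2.0, the protein-coding genes of this stretch stand in the order PRP4, PRP8, PRP6, PRP1, LOC100298767, PRP2, PRP14, PRP9, PRP-VII, PRP3, CSH2 (placental lactogen) and PRL (prolactin), 12 genes in all. That table is of another assembly and held 0 of the identifiers of the count files, so no symbol was assigned to an identifier here, and the members are named by their Ensembl identifiers.

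The members fell into 3 blocks separated by more than 1000000 bases. The middle block was a run of 12 adjacent members at 34592223 to 35341607, all but 1 on the minus strand, with 5 to 8 distinct exons and 711 to 1180 bases of exon each. Another 3 members lay 1509621 bases before it, and ENSBTAG00000050671 (36493500 to 36516957, 2 exons) lay 1151893 bases after it. The 12 protein-coding genes that the RefSeq table lists nearest before PRP4 are ARMH2, GMNN, C23H6orf62, ACOT13, TDP2, KIAA0319, ALDH5A1, GPLD1, MRS2, DCDC2, NRSN1 and LOC788801, and none of them carries a prolactin-family symbol. The run of 12 thus has as many members as that table has protein-coding genes from PRP4 to PRL, though they were not matched gene by gene. The order of symbols gives no prolactin-family gene for the 3 members before the run, and the table's next genes after PRL are HDGFL1 and SOX4, so these 4 are described by position and not as prolactin-related.

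No member of the run was on in any conceptus. A member was counted as on in a library at a level of at least 1 CPM (counts per 1000000 TMM-scaled counts of the library) and at least 3 counts. The 12 members together had 8 counts in the 157715576 counts of the 20 libraries, 0.0507 CPM of the plain total with a 95% exact Poisson interval of 0.0219 to 0.0999 CPM. None of these counts was in the shallowest library, so the total was the same without it. In the run, 9 of 12 members had 0 counts in all 20 libraries, beside 10.3% of all genes of the files and 4.04% of the 3636 genes of any chromosome that met the same span, exon and length limits. Intervals and limits from counts cover counting error only.

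The run opens with a member at 0, ENSBTAG00000025304 (34592223 to 34603069, 7 exons). Along it follow ENSBTAG00000025302 (34713795 to 34725935, 6 exons), ENSBTAG00000038718 (34810723 to 34822718, 6 exons) and ENSBTAG00000051382 (34868360 to 34880942, 8 exons), all at 0 counts. The zeros went on without a break through ENSBTAG00000049075 (34921728 to 34934622, 6 exons), ENSBTAG00000036106 (34947950 to 34959598, 5 exons), ENSBTAG00000052064 (35034527 to 35046727, 6 exons) and ENSBTAG00000031640 (35089013 to 35100774, 5 exons). They ended with ENSBTAG00000006761 (35287369 to 35299843, 6 exons), which is the one member of the run on the plus strand. A count of 0 over all libraries allowed a level of up to 0.019 CPM for each (3 counts of the total). In a single library that limit, also of the plain total without TMM scaling, was 0.215 CPM at the highest depth. It was 9.1 CPM at the lowest depth, in ovoid control replicate 3, and 1.31 CPM at most in the other 19.

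The 8 counts of the run belonged to 3 members. ENSBTAG00000015274, at the far end of the run (35332705 to 35341607, 5 exons), had 1 count in each of 4 conceptuses: ovoid control replicate 1, tubular control replicate 1 and tubular IL6 replicates 2 and 3. ENSBTAG00000025314 (34665585 to 34674927, 5 exons) had 1 count in ovoid control replicate 4 and 1 in ovoid IL6 replicate 2. ENSBTAG00000049869 (34765720 to 34777702, 6 exons) had 2 counts, both in tubular control replicate 3. These counts were spread over both shapes, both treatments and all 5 title codes, in 7 libraries, with no library above 2.

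By group, the run had 2 counts in ovoid controls, 1 in ovoid conceptuses given IL6, 3 in tubular controls and 2 in tubular conceptuses given IL6. The group totals behind them were 46832501, 36739673, 40420405 and 33722997 counts. All 12 members were at or under 3 counts in every group, so no fold change is given, and a difference by shape or treatment was not detectable at this depth.

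**Figure D1:**
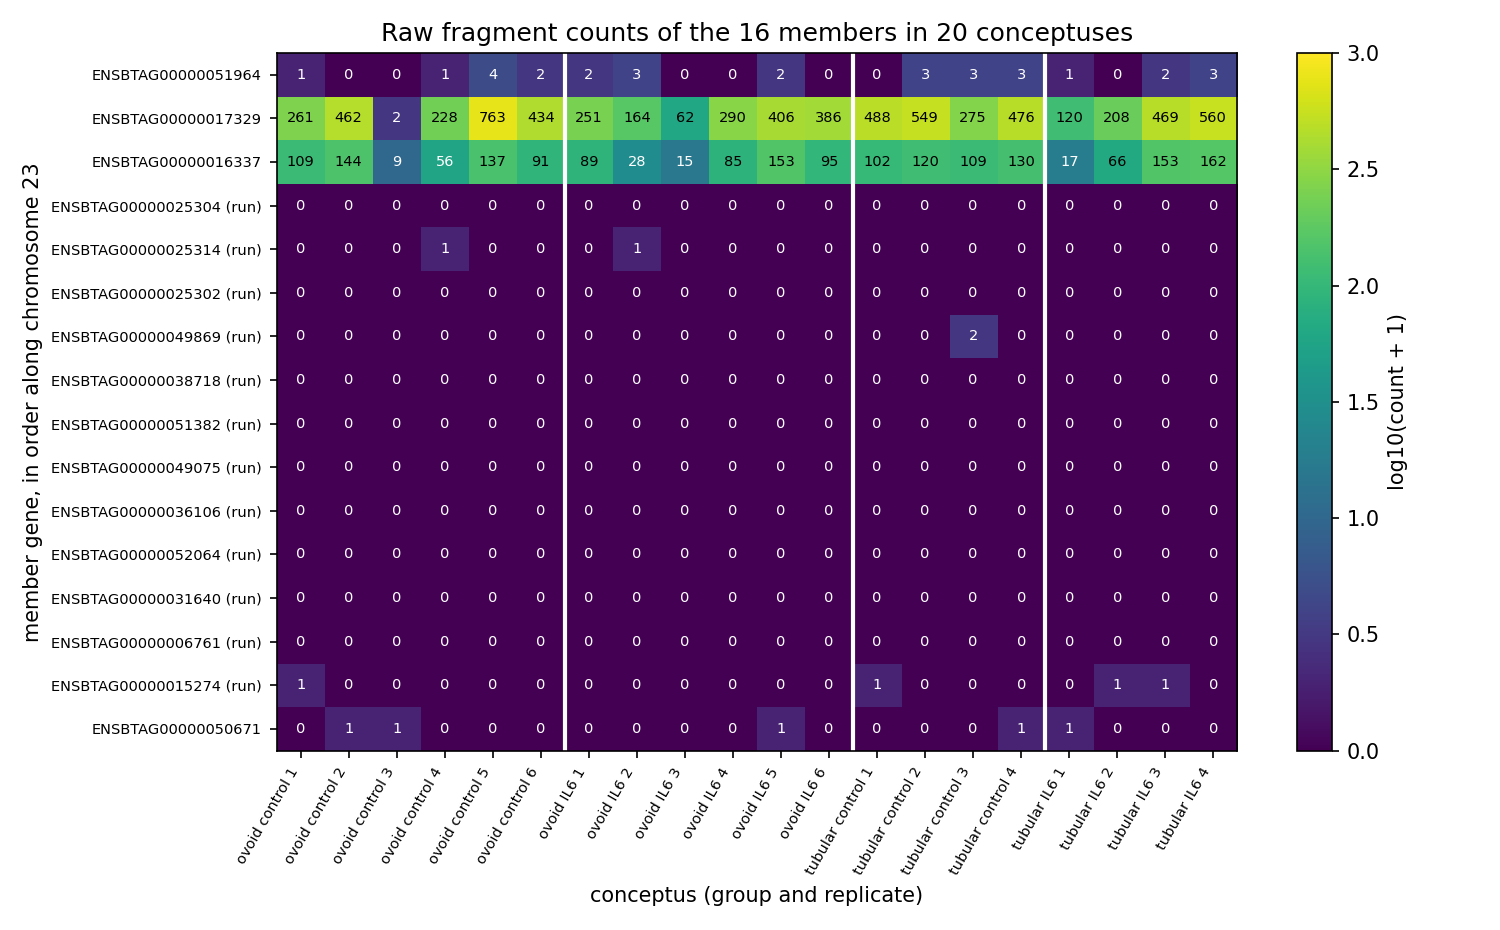
Raw fragment counts of the 16 members (rows, in order along chromosome 23; "run" marks the 12 adjacent members) in each of the 20 conceptuses (columns, by group; white lines separate groups), with colour as log10(count + 1). The run holds 8 counts in all, and the 2 rows with counts throughout are ENSBTAG00000017329 and ENSBTAG00000016337, which lie before it.

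Several features bear on how a 0 can be read. Fragments that align to more than 1 place are not counted by featureCounts unless an option asks for it, and the command in the file headers has none, so fragments shared by near-identical copies would be missing from every copy. The share of fragments lost in this way was not tested. Duplicates had also been removed, and what that took from these loci was not tested. In bulk RNA of a whole conceptus, fewer cells of a type and less RNA per cell cannot be told apart.

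Low counts within the run were not limited to its members. Against 49.8% of all genes of the files on in 10 or more conceptuses, there were 0 of the 9 other annotated genes within the run. These 9 genes had 10 counts in total. Of these, 5 lay within the span of a member of the run, each a single exon of 92 to 109 bases on the opposite strand, 3523 to 4859 bases from the 5' end of its host, in ENSBTAG00000025304, ENSBTAG00000025302, ENSBTAG00000038718, ENSBTAG00000051382 and ENSBTAG00000052064. They had 1 count together in the 20 libraries. The 49.8% is over genes of all lengths, and the share on among genes as short as these 5 was not counted. A short gene model on the opposite strand thus stood at a like distance in 5 of the 12 members.

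The nearest gene on before the run was ENSBTAG00000038430 (34453666 to 34454593, 2 exons), 137630 bases away. It fails the rule by its span of 927 bases, and it had 44040 counts and was on in all 20 conceptuses, at 264.6 ± 100.5 CPM (SD, n = 19) without ovoid control replicate 3, which measured 1792 CPM. The nearest gene on after the run was ENSBTAG00000049649 (36112356 to 36116174), 770749 bases away. Between these genes lay 24 genes with 26 counts in all, of which 18 had 0 counts and none had more than 3 in a library. Over the whole window, 8 of the 28 genes that are no members were on in 10 or more conceptuses.

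**Figure D2:**
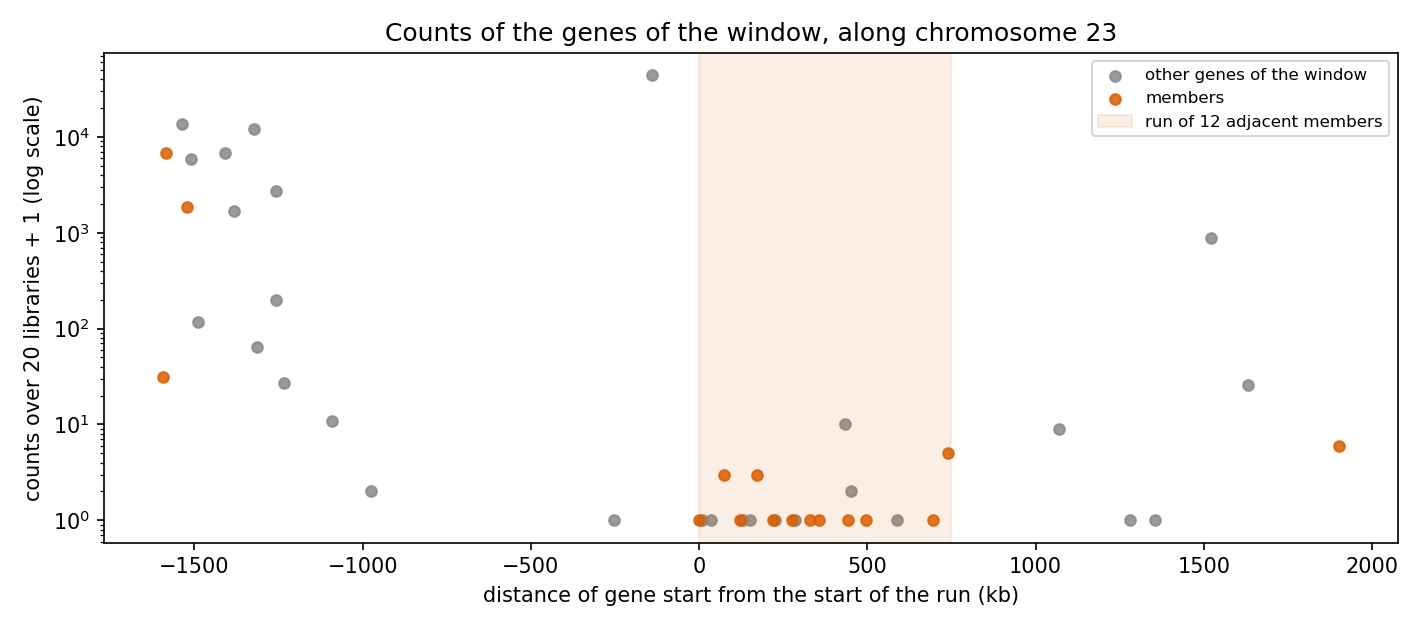
Counts over the 20 libraries plus 1 (log axis) of each gene of the window, against the distance of its start from the start of the run in kb; members are orange, other genes grey, and the shaded band is the run of 12. The highest points lie before the run, up to ENSBTAG00000038430 at 44040 counts, and no gene inside the band exceeds 10.

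Of the 16 members, 2 were on in 10 or more conceptuses, beside 49.8% of all genes of the files and 53.1% of genes of the same span, exon number and length. Both lay in the block before the run and together gave 99.5% of the 8767 counts of all members. The mean CPM over conceptuses had a median of 0 over the 16 members, against 1.55 over all genes and 2.38 over genes of the same limits. Each conceptus had both of these members on, except ovoid control replicate 3, which had 1.

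The other 2 members outside the run were not on in any conceptus. ENSBTAG00000051964 (33000046 to 33005083, plus strand, 3 exons) starts just inside the window and had 30 counts over 13 libraries, with 4 at most, and a highest level of 0.657 CPM in ovoid IL6 replicate 2. ENSBTAG00000050671 had 1 count in each of 5 libraries. Its highest level, 2.91 CPM, was a single count in the shallowest library. On the other side of the limits, ENSBTAG00000009180 (33501350 to 33521750) misses the rule by an exon length of 2118 bases, and it had 10 counts in all and 2 at most.

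ENSBTAG00000017329 (33008576 to 33019344, minus strand, 7 exons, 1068 bases of exon) was the most abundant member. In ovoid controls it ranged from 5.83 through a median of 45.2 to 53.8 CPM, and in ovoid IL6 conceptuses from 29.1 through 41.3 to 54.8 CPM. It measured 45.8, 45.9, 41.8 and 43.7 CPM in tubular controls and 26.4, 32.8, 39.6 and 46.6 CPM in tubular IL6 conceptuses. The groups overlapped. Tubular controls had the narrowest range, and each of the other 3 groups reached both lower and higher values.

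The value of 5.83 CPM is from ovoid control replicate 3 and rests on 2 counts, with a 95% exact Poisson interval of 0.706 to 21.1 CPM. The upper bound lies below 26.4 CPM, the lowest value of this gene in the other 19 conceptuses. What set that library apart beyond counting error was not tested. Without that library, ovoid controls averaged 44.5 ± 8.17 CPM (SD, n = 5), and with it 38.1 ± 17.4 (SD, n = 6). The mean was 41.4 ± 8.88 CPM (SD, n = 6) for ovoid shape after IL6, 44.3 ± 1.92 (SD, n = 4) for tubular controls and 36.3 ± 8.71 (SD, n = 4) for tubular shape after IL6.

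ENSBTAG00000016337 (33069547 to 33082602, minus strand, 3 exons, 1145 bases of exon) was on in all 20 conceptuses. Its levels in ovoid controls ran from 9.66 through a median of 12.3 to 26.2 CPM, and in ovoid IL6 conceptuses from 6.13 through 12.1 to 19.4 CPM. It measured 9.57, 10.03, 16.6 and 11.9 CPM in tubular controls and 3.74, 10.4, 12.9 and 13.5 CPM in tubular IL6 conceptuses. All 4 groups overlapped, with means of 14.0 ± 6.23 CPM in ovoid controls (SD, n = 6), 11.9 ± 5.00 after IL6 (SD, n = 6), 12.03 ± 3.20 in tubular controls (SD, n = 4) and 10.1 ± 4.47 after IL6 (SD, n = 4). Without the shallowest library ovoid controls averaged 11.55 ± 1.89 CPM (SD, n = 5). The 3 lowest values, 3.74, 6.13 and 7.05 CPM, were all from conceptuses of title code c6186, whose other 3 measured 10.4, 13.5 and 19.4 CPM.

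Per kilobase of exon, and without the shallowest library, ENSBTAG00000017329 averaged 39.1 and ENSBTAG00000016337 10.02 CPM per kb over 19 conceptuses. The level of the first was above that of the second in all 20 conceptuses except ovoid control replicate 3, where 2 and 9 counts gave 5.83 and 26.2 CPM.

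**Figure D3:**
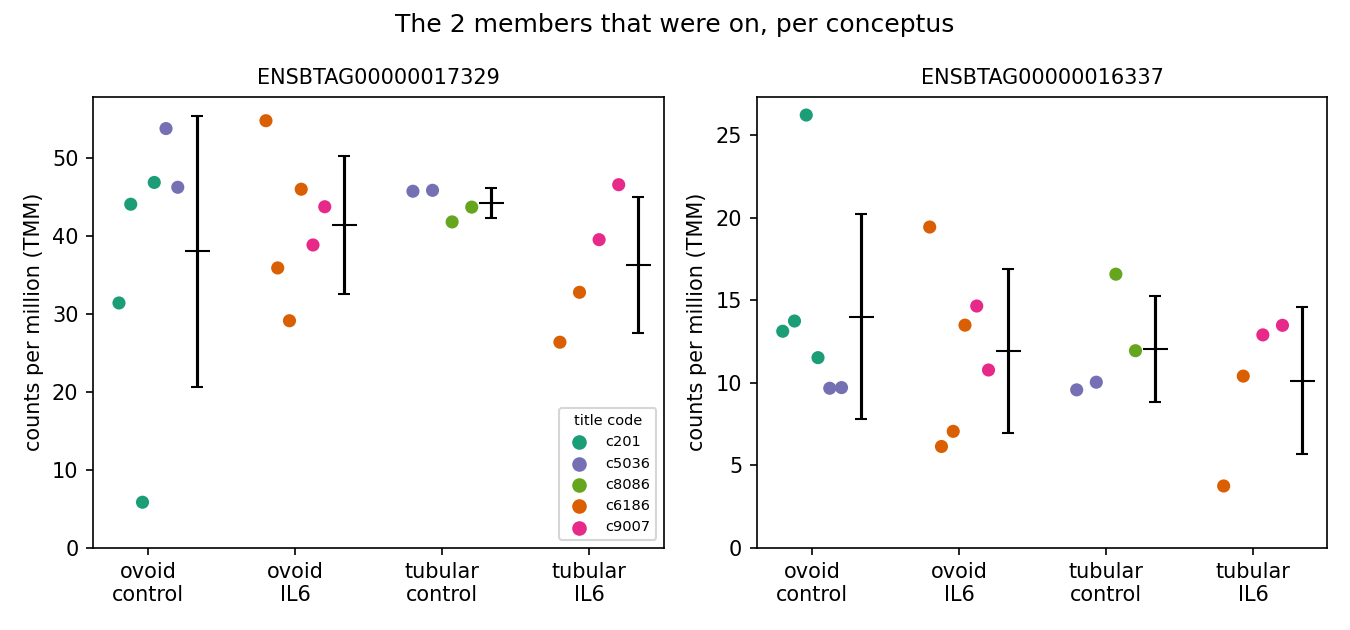
TMM-scaled level in CPM of ENSBTAG00000017329 (left) and ENSBTAG00000016337 (right) in each conceptus, by group and coloured by title code, with the group mean and SD as black bars. The groups overlap for both genes, and the point of ovoid control replicate 3 stands at 5.83 CPM on the left and 26.2 CPM on the right.

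Treatment and shape were compared in 1 edgeR quasi-likelihood model over all 20 libraries with a term for sex. Only these 2 members passed the filter on low counts, and the other 14 were not tested in this model. Without that filter 7 members could be tested, 3 of them of the run, and 0 were called in any contrast, with a lowest adjusted p of 0.856 (edgeR) among the 5 added. Those 5 had only 2 to 30 counts each over all 20 libraries, too few for the lack of a call to say anything about them. IL6 against control in ovoid conceptuses called 0 of the 2 tested members and 0 of 14875 genes (0%) at an adjusted p under 0.05, with 1239 genes and 0 members at an unadjusted p under that value. DESeq2 called 86 genes there and 0 members. In tubular conceptuses IL6 against control also called 0 of 14875 genes (0%) and 0 members, with 374 genes and 0 members at an unadjusted p under 0.05 and 0 genes called by DESeq2. Shape and treatment comparisons use the same libraries in part, so they are not independent of each other.

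For ENSBTAG00000017329, the log2 fold change of IL6 against control was 0.07 ± 0.27 (SE, edgeR adjusted p = 0.993) in ovoid conceptuses, with a 95% interval of 0.708 to 1.56 as a fold. In tubular conceptuses it was -0.26 ± 0.33 (SE, edgeR adjusted p = 0.9997), an interval of 0.516 to 1.36 as a fold. Differences within these intervals could not be told from the spread between conceptuses. The intervals take conceptuses of a title code as independent and do not cover the spread between codes. They therefore set no bound on an effect of IL6 apart from title code. Without title code c9007 the tubular value was -0.56. The sign of the ovoid value was not stable: it was -0.13 without ovoid control replicate 3 and -0.04 without ovoid IL6 replicate 1. With all libraries and title code as a random block it was -0.0045, in a limma fit that also differs from edgeR in method.

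For ENSBTAG00000016337, IL6 against control gave -0.16 ± 0.34 (SE, edgeR adjusted p = 0.971) in ovoid conceptuses, an interval of 0.546 to 1.47 as a fold. The tubular value was -0.29 ± 0.41 (SE, edgeR adjusted p = 0.9997), or 0.455 to 1.48 as a fold, and it was 0.02 without tubular IL6 replicate 1, the conceptus with the lowest level of this gene, and -0.88 without title code c9007. No title code holds both treatments, so treatment and title code cannot be told apart. By title code, ENSBTAG00000017329 averaged 32.1 ± 18.7 CPM in c201 (SD, n = 4, the shallowest library included), 47.9 ± 3.93 in c5036 (SD, n = 4) and 42.8 ± 1.34 in c8086 (SD, n = 2), against 37.5 ± 10.9 in c6186 (SD, n = 6) and 42.2 ± 3.66 CPM in c9007 (SD, n = 4). The codes of the treatments overlapped in level.

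Tubular against ovoid shape called 0 of the 2 members and 0 of 14875 genes (0%), both among controls and among IL6 conceptuses. At an unadjusted p under 0.05 there were 244 and 417 genes and 0 members, and DESeq2 called 0 genes in both. In controls the log2 fold change was 0.13 ± 0.30 (SE, edgeR adjusted p = 0.99982) for ENSBTAG00000017329 and -0.08 ± 0.38 (SE, edgeR adjusted p = 0.99982) for ENSBTAG00000016337, with intervals of 0.702 to 1.70 and 0.547 to 1.63 as a fold. Both changed sign without ovoid control replicate 3, at -0.00094 and 0.06. Among controls c201 holds only ovoid and c8086 only tubular conceptuses, so the intervals above do not separate shape from title code. With title code as a fixed term the 2 values in controls were -0.21 ± 0.48 and 0.08 ± 0.57 (SE, edgeR), and 0 genes were called. That fit compares shapes within codes, which among controls means within c5036 alone, and it was added after the data were seen. Among IL6 conceptuses the values were -0.20 ± 0.30 and -0.21 ± 0.37 (SE, edgeR adjusted p = 0.99995 for both), with intervals of 0.560 to 1.35 and 0.504 to 1.48 as a fold; the second was 0.11 without ovoid IL6 replicate 1 and 0.06 without tubular IL6 replicate 1.

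The remaining contrasts of the model were IL6 against control averaged over shapes, tubular against ovoid averaged over treatments, and the difference of the IL6 effect between shapes. Each called 0 of the 2 members and 0 of 14875 genes (0%). At an unadjusted p under 0.05 they had 1591, 642 and 94 genes and 0 members, and DESeq2 called 143, 0 and 0 genes and 0 members. The summed level of all 16 members, nearly all of it from the 2 genes before the run, was 52.7 ± 10.7 CPM (SD, n = 6) in ovoid controls and 53.6 ± 13.4 (SD, n = 6) in ovoid conceptuses given IL6. For tubular shape it was 56.7 ± 1.68 (SD, n = 4) in controls and 46.7 ± 12.8 CPM (SD, n = 4) after IL6.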

How the data were processed

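The authors deposited 1 file per conceptus with unnormalized counts of fragments for each Ensembl gene. Per the file headers they were made with featureCounts 2.0.1 without strand, on exons of Ensembl release 105 of ARS-UCD1.2, from filtered alignments with duplicates removed. The submitters' processing notes also list HISAT2, SAMtools and Picard, without versions. Counts ran from 329666 to 13940103 per library.

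Members and lists were chosen with earlier results of these data known. Groups, sex and title code came from the labels. Low counts were filtered by group with edgeR 4.0.16, which left 14875 genes, and TMM factors and a robust quasi-likelihood fit with group and sex terms were used, with Benjamini-Hochberg adjustment over all genes. DESeq2 1.42.0 and limma 3.58.1 served as alternatives, in R 4.3.3. The scripts were tested on simulated data. Standard errors are the log2 fold change over the square root of F. Values per conceptus are given for members on in 10 or more of 20 conceptuses and for the 2 with the highest single level among the rest, and fold changes for those of the 6 most abundant members that were tested. The named features that are no members were chosen after their values were seen. The prolactin signalling list of 23 genes and the 6 marker lists for trophoblast, binucleate cells, hypoblast, epiblast, endometrium and blood could not be used, because 0 identifiers matched a symbol; the tissue label was therefore not checked against markers. No genome or sequence table was used here, so no sequence is shown.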

Additional observations from a re-analysis of the deposited data

Results flagged for a closer look

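Of 8 sets of values examined (2 members in 4 groups), 1 held a conceptus far from the others, by the ratio of its gap to the nearest value over the whole range (0.754, Dixon's ratio). ENSBTAG00000016337 stood at 26.2 CPM in ovoid control replicate 3, against 9.66 to 13.7 CPM in the other ovoid controls. The value rests on 9 counts in the shallowest library, with a 95% exact Poisson interval of 11.99 to 49.79 CPM, whose lower bound lies within the range of the other ovoid controls.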

How the results depend on the processing

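Of 225 recounts of called members under the alternatives, all stayed at 0. Over all genes, the count of 0 for IL6 in ovoid conceptuses became 86 with DESeq2, 11 without ovoid IL6 replicate 5 and 165 without title code c9007, and averaged over shapes it became 143, 1 and 407. The fold changes of the 2 tested members passed the threshold in 0 of 260 refits, with a lowest adjusted p of 0.573 and a largest absolute value of 0.88, both for ENSBTAG00000016337 and IL6 in tubular conceptuses without c9007 (-0.88), but 19 refits changed their sign; the causes were not tested. For ENSBTAG00000017329 the ovoid IL6 value was -0.0045 with title code as a random block, fitted with limma and not edgeR. For the same gene it was -0.31 without c201, and -0.13 to 0.21 with 1 conceptus left out. Its shape value in controls was -0.21 without c201, -0.21 with title code as a fixed block and -0.00094 to 0.23 with 1 conceptus left out, and in IL6 conceptuses it was 0.02 without c6186. For ENSBTAG00000016337 the ovoid IL6 value was 0.0093 with the random block and 0.23 without c201. Its tubular IL6 value was 0.11 without c6186, -0.88 without c9007 and -0.60 to 0.02 with 1 conceptus left out. Its shape value in controls was 0.08 with the random block and 0.08 with the fixed block, 0.33 without c201 and -0.22 to 0.06 with 1 left out, and in IL6 conceptuses 0.20 without c6186, -0.79 without c9007 and -0.47 to 0.11 with 1 left out. Both members stayed on in 10 or more conceptuses under the 3 other definitions of on (0.5 or 5 CPM, or 10 counts), and the mean number on per conceptus, 1.95, ran from 1.9 to 2. Fits on the groups of a contrast alone were made for the 4 contrasts of 2 groups. The labels give no replicate number that pairs conceptuses across groups. Title codes c5036, c6186 and c9007 hold both shapes, and the fixed block on them, chosen after seeing the data, called 0 members and 0 genes in the 4 contrasts that involve shape (12 residual degrees of freedom); genes at an unadjusted p under 0.05 were 39 among controls, 395 among IL6 conceptuses, 78 averaged and 101 for the difference.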

Other observations

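ENSBTAG00000004982 (chromosome 23) is a gene of the window that is no member and was chosen after its values were seen. Its levels did not overlap between the title codes given IL6, nor between c201 and c5036 of the controls. How many other genes show this was not counted, and the differences were not tested. The gene averaged 45.8 ± 21.6 CPM (SD, n = 6) in conceptuses of c6186 and 2.84 ± 2.48 (SD, n = 4) in those of c9007, both given IL6. Controls averaged 0.354 ± 0.321 CPM for c201 (SD, n = 4), 4.59 ± 1.46 for c5036 (SD, n = 4) and 3.98 ± 0.176 for c8086 (SD, n = 2). Its log2 fold change of IL6 against control in ovoid conceptuses was 3.76 ± 1.02 (SE, edgeR adjusted p = 0.375), and in tubular conceptuses 1.91 ± 1.17 (SE, edgeR adjusted p = 0.9997).

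The 3 conceptuses lowest in ENSBTAG00000016337 were also the 3 lowest of the 20 in ENSBTAG00000009798, a neighbour in the same window, with 2.19, 3.76 and 1.10 CPM in ovoid IL6 replicates 2 and 3 and tubular IL6 replicate 1, against 10.2 to 71.9 CPM in the other 17. All 3 were of title code c6186, and their libraries had 4545473, 2298491 and 4845404 counts in the same order. Of the other 17, only ovoid control replicate 3 had fewer counts, at 329666. Depth, title code and a source of variation shared by the genes were not tested.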
